A study of Mus musculus with 30 samples.

Results

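The autophagy and lysosome genes described here are 45 genes of 55487 in the count table. They were chosen by name for their role, as autophagy machinery, lysosomal enzymes and membrane proteins, and the TFEB family of regulators. The rule used no measured value, but it was set with earlier results of these data known. All 45 were found by matching the Ensembl identifiers of the table to gene symbols, and all 45 were among the 15907 genes with enough counts to be tested. In C2C12 myotubes, 17 of the 45 differed after 4 days without serum (8 higher and 9 lower), 37.8% beside 27.8% of all genes tested. When metformin and leucine were added together to serum-free myotubes 8 differed (6 higher and 2 lower), 17.8% beside 18.4% of all genes. No member passed the test with metformin alone or leucine alone, where 0.157% and 0.553% of all genes did. The largest of these changes was the 1.28-fold fall of Ulk1 without serum.

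C2C12 is a mouse myoblast line whose cells fuse into multinucleated myotubes when serum is lowered. All cells were differentiated for 4 days in low glucose DMEM with 2% horse serum and then spent another 4 days in 1 of 5 conditions. The 2% HS group stayed in 2% horse serum. The SD group was serum deprived, with no horse serum and no drug. The MET group was serum deprived with 100 nM metformin, a biguanide diabetes drug, the LEU group was serum deprived with 500 nM leucine, a branched-chain amino acid that activates mTORC1, and the MET+LEU group received both. All groups share the one wild-type cell line. Each group had 6 libraries of total RNA depleted of ribosomal RNA, 30 in all, with 12784960 to 19604103 counts each. The labels do not say whether the 6 came from separate cultures, so p-values measure only the spread between these libraries.

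Autophagy encloses cytoplasm in a double membrane that fuses with the lysosome, where acid hydrolases break the contents down. The ULK1 kinase complex and the Beclin 1 lipid kinase complex start the membrane, WIPI proteins read its lipid, a conjugation system attaches LC3 and GABARAP proteins to it, and cargo receptors such as p62 (Sqstm1) bring cargo to them. TFEB, TFE3 and MITF are related transcription factors that switch on many of these genes through the CLEAR motif, and mTORC1 holds TFEB in the cytoplasm while nutrients are plentiful. In skeletal muscle the pathway removes damaged proteins and organelles, and its activity rises during fasting and disuse. Transcript levels measure neither flux through the pathway nor the activity of its enzymes.

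The CLEAR motif was looked for in promoters, since it is the letters by which TFEB family proteins recognise these genes. RefSeq promoter windows (GRCm38.p6, from 250 bases before to 50 after a gene start) were matched for 38 of the 45 members by symbol. The E-box CACGTG, which reads the same on both strands, lay in a window of 13 of the 38 (34.2%) and of 8.09% of all 27025 genes with a window. Its extended form TCACGTGA, which also reads the same on both strands and always contains CACGTG, lay in 7 of the 38 (18.4%) and in 1.12% of all genes. Those 27025 genes include ones not tested here. The members were chosen by name from the pathway that this motif is known for, so their higher share is no result of these data. The 9 sites of these 7 members are printed below, each read on the strand of the gene with 11 bases on either side and the TCACGTGA in capitals.
Atg3: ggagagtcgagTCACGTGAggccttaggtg
Mcoln1: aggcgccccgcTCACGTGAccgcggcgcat
Ctsa, upstream site: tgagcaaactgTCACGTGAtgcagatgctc
Ctsa, downstream site: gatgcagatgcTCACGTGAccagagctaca
Ctsd: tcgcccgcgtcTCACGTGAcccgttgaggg
Gla, upstream site: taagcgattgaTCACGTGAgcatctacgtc
Gla, downstream site: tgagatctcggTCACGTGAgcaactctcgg
Atp6v0d1: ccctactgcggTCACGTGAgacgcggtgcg
Atp6v1a: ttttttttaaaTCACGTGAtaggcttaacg
The Atg3 site lies at chr16:45158746-45158775 on the plus strand, the Mcoln1 site at chr8:3500462-3500491 (plus), the Ctsa sites at chr2:164833749-164833778 and chr2:164833766-164833795 (plus), and the Ctsd site at chr7:142387908-142387937 (minus). The Gla sites lie at chrX:134601215-134601244 and chrX:134601182-134601211 (minus), the Atp6v0d1 site at chr8:105566050-105566079 (minus) and the Atp6v1a site at chr16:44139373-44139402 (minus). Counted from the RefSeq start, the motif begins between -228 (Gla) and 5 (Ctsa). The 7 genes encode the conjugating enzyme ATG3, the lysosomal calcium channel mucolipin 1, the proteases cathepsin A and cathepsin D, alpha-galactosidase A, and a pair of V-ATPase subunits. A match of letters is a description of the window, not of binding.

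Levels below are in CPM, the usual scaling of a gene's reads to the size of its library, here after TMM, which corrects for library composition. One library stood apart before any comparison. In MET+LEU replicate 6, nuclear ribosomal RNA took 5.85% of counts and mitochondrial ribosomal RNA 7.64%, against at most 1.96% and 0.76% in the other 29 libraries, and the 45 members took 0.395% of counts against 0.502% to 0.555% elsewhere. Counts of members called in the MET+LEU comparisons, and the values of members called there, are therefore also given without it. The mitochondrial ribosomal RNA share also differed between whole groups, at 0.219% to 0.306% in 2% HS, 0.281% to 0.367% in SD, 0.244% to 0.705% in MET, 0.501% to 0.71% in LEU and 0.649% to 0.76% in the other 5 MET+LEU libraries, which lay above every SD and 2% HS library. The TMM factors of those 5, 0.968 to 0.9854, lay below the 1.002 to 1.027 of SD. The lowest factor of any library was that of MET+LEU replicate 6, 0.8031, which enters all its CPM values. Of 8 myotube markers, 8 were detected in every group (mean Acta1 3120 to 3522 and Myog 1009 to 1070 CPM across groups). The macrophage markers, which matter because lysosomal genes are strongly expressed in macrophages, summed to between 1.18 and 3.82 CPM over 6 genes in any library, with Adgre1 at 0 in all 30 libraries. Fibroblast markers summed to 2986 to 3296 CPM over 5 genes in 2% HS and 5201 to 5518 in SD. The 8 myotube markers summed to 38316 to 41299 in 2% HS and 31616 to 34034 in SD. Their sums were 28212 to 31804 in MET, 34893 to 36608 in LEU and 30153 to 38411 in MET+LEU. The narrow ranges of Acta1 and Myog thus did not hold for the 8 together. The 5 markers of cycling myoblasts summed to 344 to 368 in 2% HS, 302 to 339.6 in SD and 266 to 289 in MET+LEU. The part of these marker levels and ribosomal RNA shares in the results below was not tested. In bulk RNA, fewer cells of a type and less RNA per cell cannot be told apart.

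**Figure D1:**
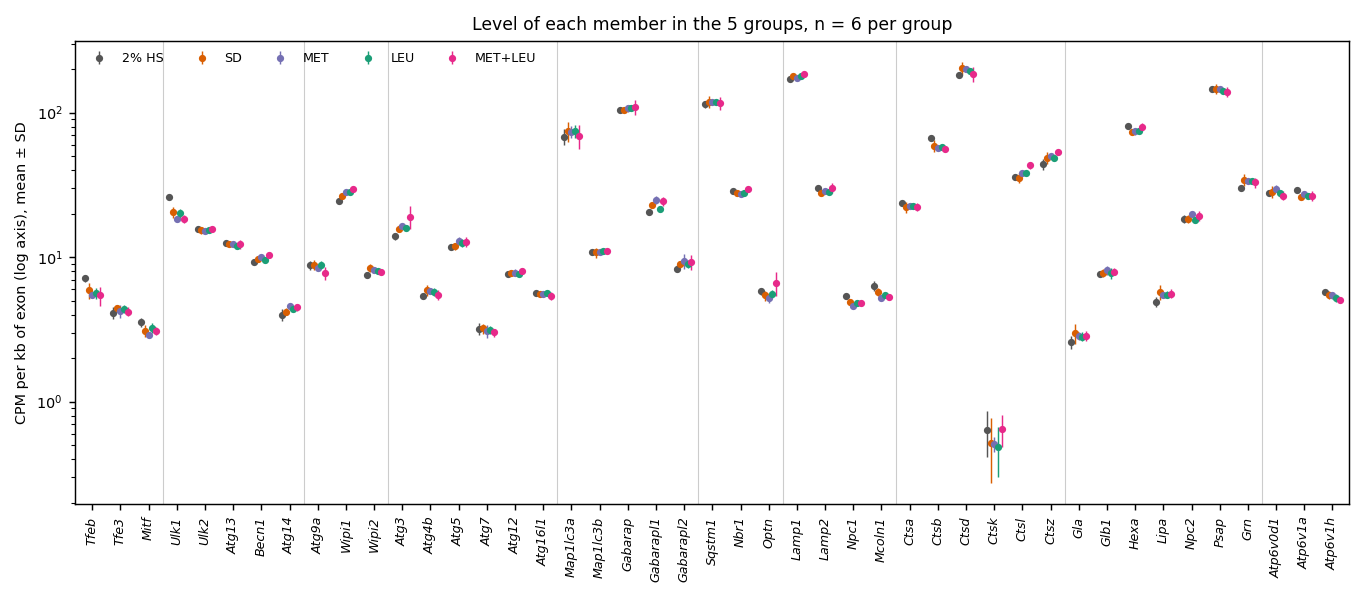
Mean ± SD of CPM per kilobase of exon (log axis) for each of the 45 members in the 5 groups, 6 libraries per group, with vertical lines between roles. Levels span from Ctsd (193 over all libraries) to Ctsk (0.56), and the groups lie close together beside that span.

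Levels between genes were compared as CPM per kilobase of annotated exon, averaged over the 30 libraries. On this scale the highest members were Ctsd (193), which encodes the aspartic protease cathepsin D, Lamp1 (178), a major protein of the lysosomal membrane, Psap (143), the precursor of the saposins, Sqstm1 (117) and Gabarap (107). The lowest were Ctsk (0.56), a protease best known from osteoclasts, Gla (2.81), the conjugation enzyme gene Atg7 (3.12) and the regulator Mitf (3.17). The plot of levels by group shows how narrow the differences between groups were beside the differences between genes. Ctsk had only 5 to 21 counts per library, and its changes could not be resolved at this depth. Summed over the 45 members, the level was 5150 to 5320 CPM in 2% HS, 4959 to 5544 in SD, 5119 to 5323 in MET, 5062 to 5290 in LEU and 4927 to 5537 in MET+LEU, so the groups overlapped in total output.

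The SD vs. 2% HS comparison asked what serum deprivation did to these transcripts. Transcripts of the upstream kinase Ulk1 and of the regulators Tfeb and Mitf fell. Those of the lysosomal genes Lamp2, Npc1, Mcoln1, Ctsb, Hexa and Atp6v1a also fell. Transcripts of Wipi1, Wipi2, Atg4b, Gabarapl1, Ctsd, Ctsz, Lipa and Grn rose. Together these are 17 of 45 members, or 37.8%, beside 27.8% of all genes tested. The 8 that rose stand beside a background of 13.9% of all genes higher, and the 9 that fell beside 13.9% lower. The median log2 fold change of the members was 0.01, and that of all 15907 genes was 0.00. Tfeb, Ulk1, Wipi2, Gabarapl1, Ctsb, Hexa, Lipa, Grn and Atp6v1a passed in all 40 alternative settings, and the other 8 were each lost in at least 1. Without SD replicate 3 the counts were 5 higher and 6 lower of 45. In that fit 1938 of all 16041 genes tested were higher and 1992 lower, so the share of members was close to that of all genes.

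**Figure D2:**
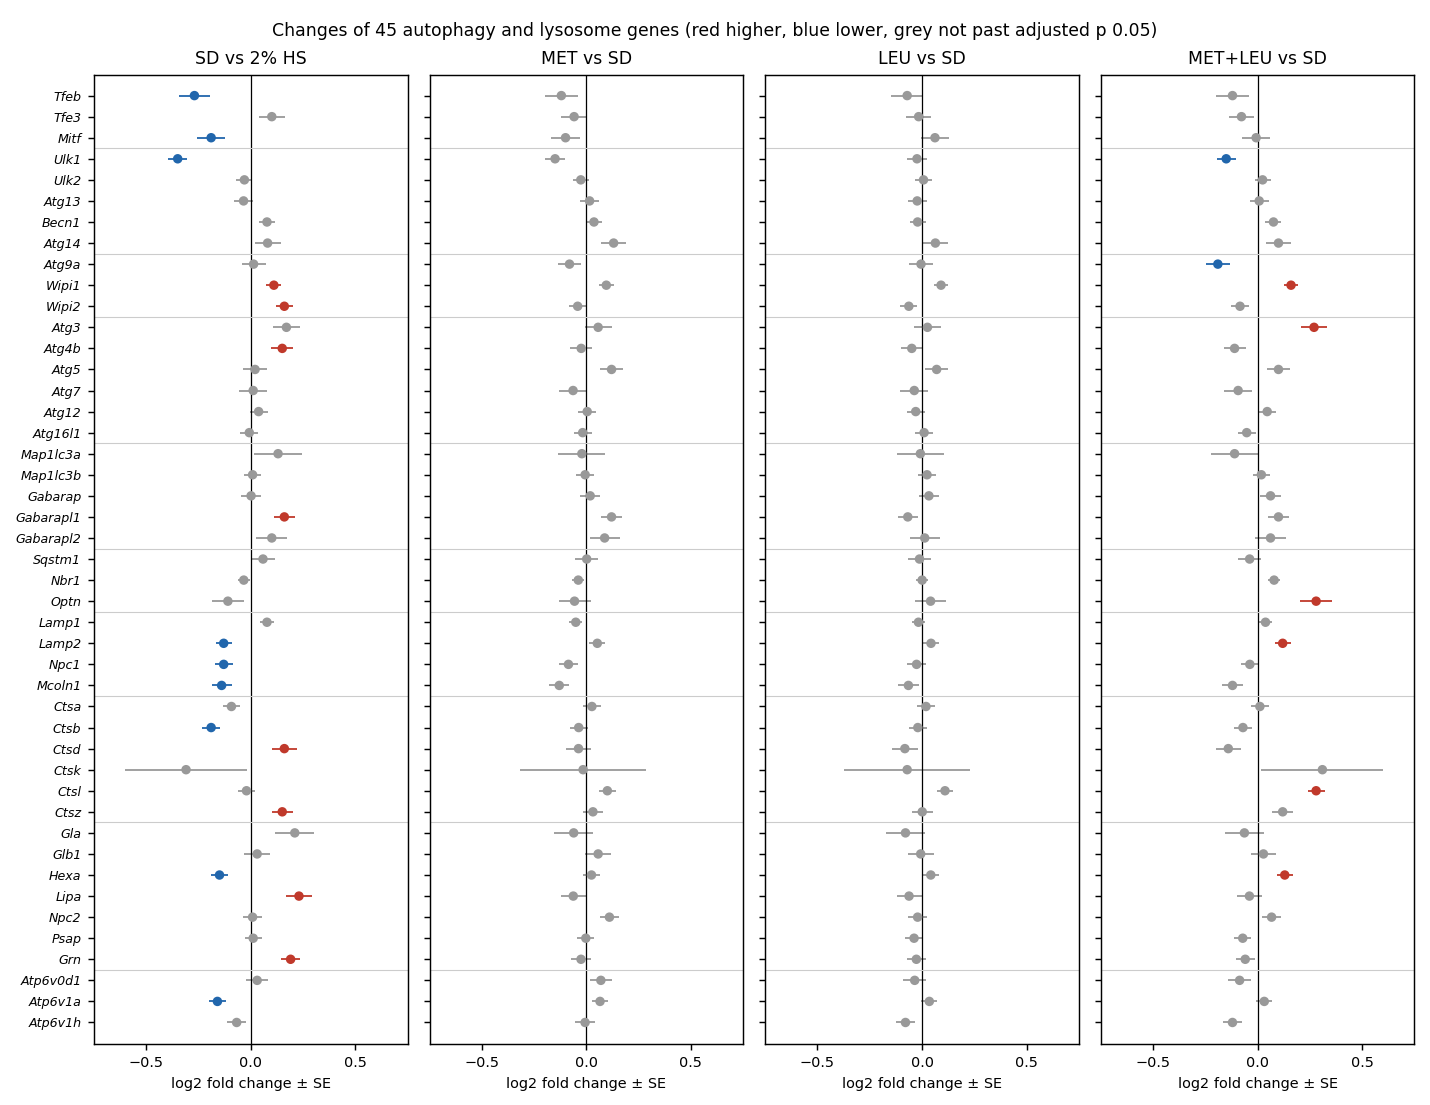
Log2 fold change ± SE of the 45 members in 4 comparisons, grouped by role with horizontal lines between roles. Red points are higher and blue points lower at an adjusted p under 0.05, with 8 red and 9 blue points in SD vs 2% HS, none in MET vs SD or LEU vs SD, and 6 red and 2 blue in MET+LEU vs SD.

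Of the 3 TFEB family regulators, 2 fell and none rose, beside 13.9% of all genes tested lower and 13.9% higher. Tfeb (ENSMUSG00000023990, chr17:47737030-47792419) had 38 to 42.8 CPM in 2% HS, with a median of 40.4, and 29 to 40.1 CPM in SD, with a median of 33.8. All 6 SD libraries lay below the 2% HS mean of 40.4, although the highest of them reached into the 2% HS range. The difference was -0.27 ± 0.08 on the log2 scale (SE, n = 6 per group, adjusted p = 0.00678, from the quasi-likelihood F test in edgeR adjusted over all genes tested). Mitf had 20.1 to 24.6 CPM (median 22) in 2% HS and 15.9 to 20.9 CPM (median 20.1) in SD, and its level fell by 12.1% (adjusted p = 0.0296). This call was lost without SD replicate 1, SD replicate 3 or 2% HS replicate 6, with an adjusted p of up to 0.121. It was also lost with limma-voom (0.0557), a filter of more than 5 counts in total (0.0568) and only the groups compared (0.0548). Tfe3 had 32.1 to 42.9 CPM (median 38.2) in 2% HS and 37.8 to 43.7 CPM (median 41.2) in SD, and its log2 difference of 0.10 ± 0.06 did not pass (adjusted p = 0.244).

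Ulk1 (ENSMUSG00000029512, chr5:110784488-110810097) encodes the kinase that begins autophagosome formation and changed most among the members that passed. It had 164 to 175 CPM (median 168) in 2% HS and 121 to 151 CPM (median 130.4) in SD, and every SD library lay below every 2% HS library. The log2 difference was -0.35 ± 0.05 (adjusted p = 2.2e-08), and the level fell by 21.7%. The other members of the initiation complexes did not pass: the related kinase Ulk2, the ULK1 partner Atg13, Becn1 and its partner Atg14 had log2 differences of -0.03, -0.04, 0.08 and 0.08. Becn1, which encodes Beclin 1, had 62.5 to 67.5 CPM (median 65.4) in 2% HS and 65 to 71 CPM (median 70.1) in SD (adjusted p = 0.134).

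Among genes for membrane supply, both WIPI genes rose, beside 13.9% of all genes tested higher. Atg9a, the membrane-spanning scramblase of the pathway, had a log2 difference of 0.01. Wipi1 (ENSMUSG00000041895, chr11:109573331-109611967), whose product binds the lipid made by the Beclin 1 complex, had 104 to 114 CPM (median 108) in 2% HS and 111 to 122 CPM (median 117) in SD. All 6 SD libraries lay above the 2% HS mean, and the log2 difference was 0.11 ± 0.04 (adjusted p = 0.0124). Wipi2, which recruits the conjugation system, went from a mean of 79.4 ± 3.36 to 88.5 ± 5.54 CPM (SD, n = 6), a rise of 11.5% (adjusted p = 0.00293).

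Of 6 conjugation genes, 1 passed. Atg4b, the protease that primes LC3, rose from 44.3 ± 2.05 to 49 ± 4.2 CPM, with an adjusted p of 0.0302 that went up to 0.117 when single libraries were left out (SD replicate 1 or 3, or 2% HS replicate 1 or 5). The Atg4b call was also lost with limma-voom (adjusted p = 0.0739). Atg3, the enzyme that transfers LC3 to lipid, had 40.7 to 47.3 CPM (median 44.1) in 2% HS and 47 to 53.6 CPM (median 49.2) in SD. Its log2 difference of 0.17 ± 0.07 was just outside the threshold (adjusted p = 0.0524) and passed in 10 of 40 alternative settings. Atg5, Atg7, Atg12 and Atg16l1 had log2 differences between -0.01 and 0.04.

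Of the 5 LC3 and GABARAP genes, which encode the proteins that coat the autophagosome, 1 rose. Gabarapl1 (chr6:129533160-129542346) had 39.3 to 43.2 CPM (median 40.7) in 2% HS and 44.2 to 49.3 CPM (median 45.3) in SD. The groups did not overlap, and the log2 difference was 0.16 ± 0.05 (adjusted p = 0.00961). Map1lc3b, the gene of LC3B, had 76.8 to 85.6 CPM (median 80.6) in 2% HS and 74.8 to 93.5 CPM (median 79.1) in SD, with a log2 difference of 0.01 and a 95% interval from -0.07 to 0.09. Gabarap had 177 to 200.4 CPM (median 197) and 183 to 201 CPM (median 196), with a log2 difference of 0.00 (interval -0.10 to 0.10). Map1lc3a spread most, from 70 to 98.5 CPM (median 78.5) in 2% HS and from 70.1 to 111 CPM (median 86.1) in SD, so its log2 difference of 0.13 ± 0.11 did not pass (adjusted p = 0.421). Gabarapl2 had 17.9 to 21.1 CPM (median 19.1) and 18.2 to 21.6 CPM (median 21.2), a log2 difference of 0.10 that did not pass (adjusted p = 0.353).

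None of the 3 cargo receptors passed. Sqstm1, the gene of p62, had 357 to 408 CPM (median 387) in 2% HS and 352 to 446 CPM (median 389.6) in SD, and its log2 difference of 0.06 had an interval from -0.05 to 0.17. Nbr1, a receptor of related structure, had 190.3 to 201 CPM (median 197) and 187 to 195 CPM (median 193), with all 6 SD libraries below the 2% HS mean but a log2 difference of only -0.03 (adjusted p = 0.414). Optn, which encodes optineurin, a receptor for damaged mitochondria and bacteria, had 20.3 to 23.1 CPM (median 22.4) and 18.2 to 22.8 CPM (median 20.2), a log2 difference of -0.11 ± 0.08 (adjusted p = 0.313).

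Of the 4 lysosomal membrane genes, 3 fell, beside 13.9% of all genes tested lower. Among 20 other tested genes of the lysosomal membrane and transport, 1 was higher and 2 lower. Lamp2 (chrX:38401357-38456454), needed for fusion and for chaperone-mediated autophagy, had 275 to 307 CPM (median 282) in 2% HS and 249 to 276 CPM (median 263) in SD. All 6 SD libraries lay below the 2% HS mean, and the log2 difference was -0.13 ± 0.04 (adjusted p = 0.0106), which a GC content offset brought to -0.069 (adjusted p = 0.13). Npc1, the cholesterol exporter of the lysosome, fell from 60.6 ± 2.31 to 55.6 ± 2.92 CPM (adjusted p = 0.0252), and the calcium channel gene Mcoln1 from 47.7 ± 3.69 to 43.3 ± 2.77 CPM (adjusted p = 0.0228). Leaving out single libraries ended both calls, with an adjusted p of up to 0.0612 for Npc1 (without 2% HS replicate 2 or 6 or SD replicate 1 or 3) and 0.12 for Mcoln1 (without 2% HS replicate 4 or SD replicate 3 or 6). A filter of more than 5 counts in total also ended both (0.0617 and 0.0551). Only the groups compared also ended the Mcoln1 call (0.0563). Lamp1 had a log2 difference of 0.08 that did not pass (adjusted p = 0.0601).

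The 6 cathepsin genes split, with Ctsd and Ctsz higher, Ctsb lower and 3 not past the threshold. Ctsb (cathepsin B, chr14:63122462-63145923) had 367 to 424 CPM (median 412) in 2% HS and 315 to 406 CPM (median 347) in SD. All but 1 of the SD libraries lay below the 2% HS mean, and the log2 difference was -0.19 ± 0.04 (adjusted p = 5.1e-04). Ctsd had 413 to 455 CPM (median 427) and 419.8 to 554 CPM (median 475), with overlapping groups. Its log2 difference of 0.16 ± 0.06 passed narrowly (adjusted p = 0.0493) and was lost in 29 of 40 alternative settings. Ctsz, a carboxypeptidase, rose from 63.4 ± 5.58 to 70.2 ± 6.32 CPM (adjusted p = 0.0232, and up to 0.116 without 2% HS replicate 2 or 5 or SD replicate 1 or 3). The Ctsz call was also lost with a GC content offset (0.0986) and with only the groups compared (0.0521). The serine carboxypeptidase gene Ctsa (-0.09, adjusted p = 0.101) and Ctsl (-0.02) were not past the threshold, and nor was Ctsk.

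Among the 7 other hydrolases and lumenal proteins, Lipa and Grn rose and Hexa fell. Lipa, the lysosomal acid lipase, had 29.9 to 37.4 CPM (median 32.8) in 2% HS and 31.5 to 44.7 CPM (median 38.9) in SD, with 5 of 6 SD libraries above the 2% HS mean and a rise of 17.1% (adjusted p = 0.00319). Grn, which encodes the lysosomal protein progranulin, had 101 to 108 CPM (median 106) and 106 to 136 CPM (median 119), a log2 difference of 0.19 ± 0.05 (adjusted p = 0.00152). Hexa, a subunit of beta-hexosaminidase, had 153 to 165 CPM (median 162) and 135 to 155 CPM (median 145), and its log2 difference was -0.15 ± 0.04 (adjusted p = 0.00329). All 6 SD libraries were on the same side of the 2% HS mean for Grn and Hexa. Glb1, the lysosomal beta-galactosidase whose activity is the basis of the senescence-associated stain, had 21.3 to 24.5 CPM (median 23.2) in 2% HS and 21.8 to 25.4 CPM (median 23.2) in SD. Its log2 difference was 0.03, with an interval from -0.09 to 0.15. Gla (0.21, adjusted p = 0.0867), the sterol carrier gene Npc2 (0.01) and Psap (0.01) did not pass.

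Of 3 subunits of the V-ATPase, the pump that acidifies the lysosome, Atp6v1a, the catalytic subunit, fell from 175 ± 3.64 to 157 ± 5.48 CPM (-0.16 ± 0.04, adjusted p = 0.00148), and its groups did not overlap. Atp6v0d1 (0.03) and Atp6v1h (-0.07) did not pass. Of the 7 members with TCACGTGA in a promoter window, Mcoln1 and Atp6v1a fell, Ctsd rose, and Atg3, Ctsa, Gla and Atp6v0d1 did not pass.

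**Figure D3:**
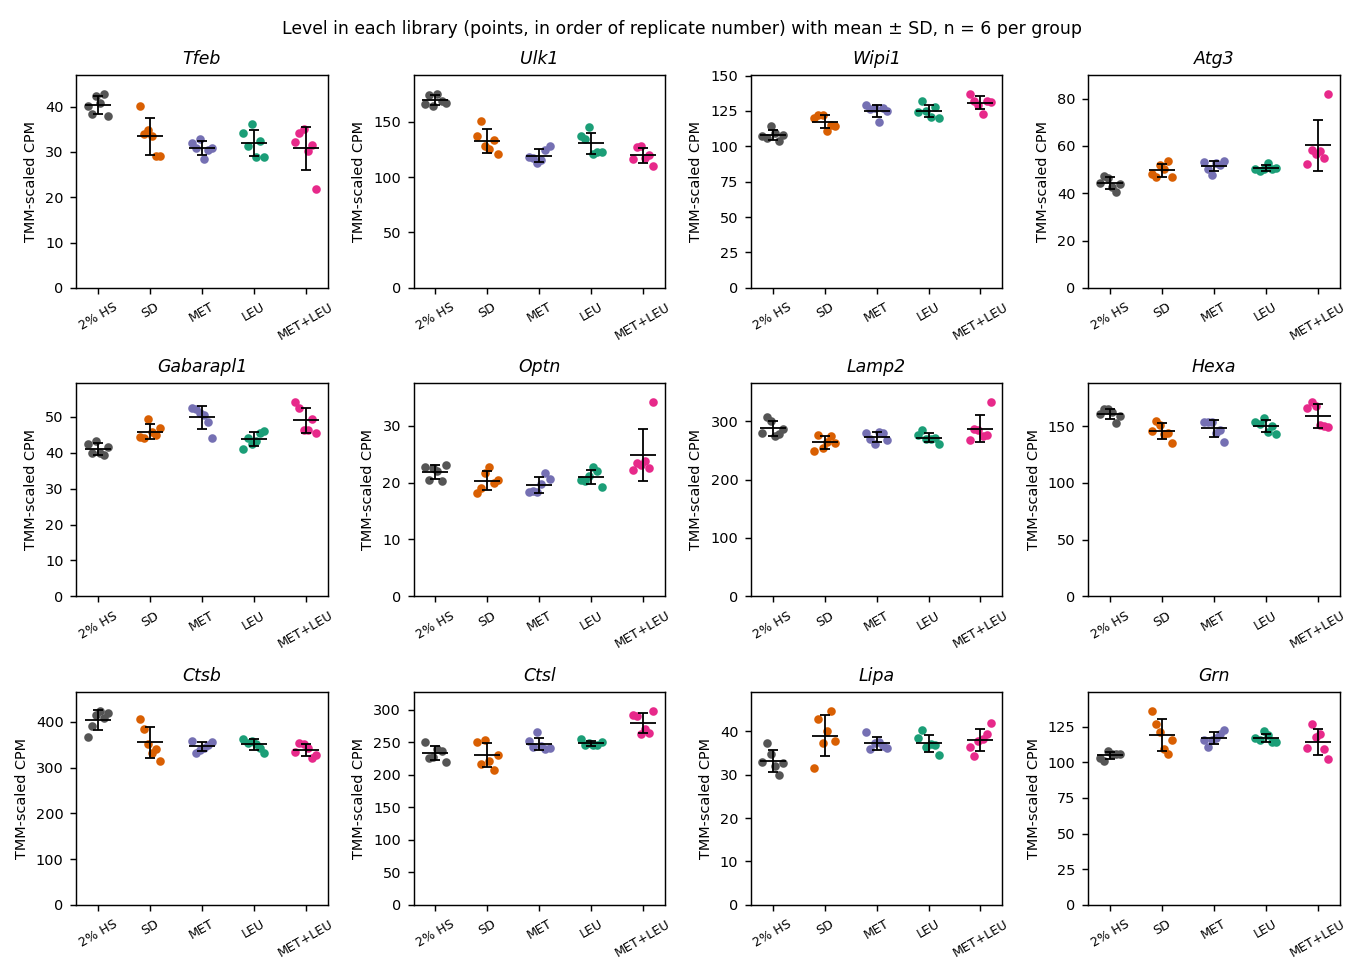
Level of 12 members in each of the 30 libraries as TMM-scaled CPM on axes from 0, with points for libraries and bars for the mean ± SD of 6. Ulk1 lies at 164 to 175 in 2% HS and below that in all libraries of the other groups, Ctsl is highest in MET+LEU, and 1 MET+LEU library stands alone for Atg3 (82), Optn (34.1) and Lamp2 (332).

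The MET vs. SD and LEU vs. SD comparisons asked what each compound did alone in serum-free myotubes. For MET vs. SD, 0 of 45 members passed in edgeR beside a background of 0.157% of all genes. At an unadjusted p under 0.05 there were 8 of 45 members (6 higher and 2 lower), beside 1597 of all 15907 genes. For LEU vs. SD, 0 passed beside a background of 0.553%, and 2 had an unadjusted p under 0.05, beside 1588 of all 15907 genes. DESeq2's Wald test and limma-voom also called 0 members in both comparisons. The smallest adjusted p among members was 0.171 with metformin, for Ulk1, which had 113 to 128 CPM (median 117) in MET and 121 to 151 CPM in SD. Its log2 difference was -0.15 ± 0.05. With leucine the smallest was 0.267, for Ctsl, which had 245 to 255 CPM (median 248) in LEU and 208 to 253 CPM in SD, a log2 difference of 0.11 ± 0.04.

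For the LC3B, p62 and beta-galactosidase genes, the data bounded any change under the single compounds. The 95% interval of the log2 difference for Map1lc3b ran from -0.09 to 0.08 with metformin and from -0.06 to 0.11 with leucine. For Sqstm1 it ran from -0.11 to 0.11 and from -0.12 to 0.10, and for Glb1 from -0.06 to 0.18 and from -0.13 to 0.11. For Tfeb, with 28.4 to 32.8 CPM (median 30.9) in MET and 28.8 to 36.2 CPM (median 31.9) in LEU, it ran from -0.27 to 0.03 and from -0.22 to 0.08.

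The MET+LEU vs. SD comparison asked what the combination did. Transcripts of Atg3, Wipi1, Optn, Ctsl, Lamp2 and Hexa rose and those of Ulk1 and Atg9a fell. That is 8 of 45 members, or 17.8%, beside 18.4% of all genes tested, a share close to the background. The 6 higher stand beside a background of 10.6% and the 2 lower beside 7.80%. The median log2 fold change of the members was 0.01 and that of all genes was -0.01. Wipi1, Atg3 and Ctsl passed in all 40 alternative settings, and without MET+LEU replicate 6 the counts were 5 higher and 2 lower. Fitting only the groups compared left 3 higher and 0 lower, and limma-voom and an adjusted p under 0.01 each left 4 higher and 0 lower. Calls over all genes also fell, to 941 higher and 481 lower, 1158 and 701, and 1034 and 579 in these settings. All 6 MET+LEU libraries had a larger mitochondrial ribosomal RNA share than any SD library (0.649% or more against 0.367% or less), and its part in these changes was not tested.

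Ctsl (cathepsin L, a cysteine protease, chr13:64359337-64370890) changed most clearly. It had 208 to 253 CPM (median 226) in SD and 262 to 298 CPM (median 281) in MET+LEU, so the groups did not overlap. The log2 difference was 0.28 ± 0.04 (adjusted p = 2.5e-06), and 0.26 without MET+LEU replicate 6 (adjusted p = 2.3e-06). Wipi1 had 111 to 122 CPM in SD and 123 to 137 CPM (median 131) in MET+LEU, again without overlap, with a log2 difference of 0.16 ± 0.04 (adjusted p = 0.00119, and 0.00187 without that library).

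Atg3 (chr16:45158785-45188538) had 47 to 53.6 CPM in SD and 52.2 to 82 CPM (median 57.1) in MET+LEU. The highest value was MET+LEU replicate 6, and the other 5 libraries lay between 52.2 and 58.1 CPM. The log2 difference was 0.27 ± 0.06 (adjusted p = 0.0021), and 0.17 without that library (adjusted p = 0.00725), a smaller rise that still passed. Optn had 18.2 to 22.8 CPM in SD and 22.3 to 34.1 CPM (median 23.3) in MET+LEU, where the highest value was again MET+LEU replicate 6. Its log2 difference of 0.28 ± 0.08 (adjusted p = 0.00594) became 0.17 without that library and no longer passed (adjusted p = 0.058), nor did it with limma-voom or with only the groups compared.

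Lamp2 had 249 to 276 CPM in SD and 268 to 332 CPM (median 281) in MET+LEU, with MET+LEU replicate 6 highest. The log2 difference was 0.12 ± 0.04 (adjusted p = 0.0177), and 0.08 without that library (adjusted p = 0.132), so the call was lost, as it was without SD replicate 1 or 3, with limma-voom, with only the groups compared and with the GC content offset, which gave 0.053 (adjusted p = 0.335). Hexa had 135 to 155 CPM in SD and 149 to 171 CPM (median 158) in MET+LEU, a log2 difference of 0.13 ± 0.04 (adjusted p = 0.0184, and 0.00729 without MET+LEU replicate 6). It was lost without SD replicate 6 or MET+LEU replicate 1 or 2, with an adjusted p of up to 0.074, and with only the groups compared (0.0922).

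Ulk1 had 109.8 to 128 CPM (median 118) in MET+LEU against 121 to 151 CPM in SD, and all 6 MET+LEU libraries lay below the SD mean of 133. The log2 difference was -0.15 ± 0.05 (adjusted p = 0.0196), and -0.13 without MET+LEU replicate 6 (adjusted p = 0.0419). The call was lost without SD replicate 2, the highest SD library (adjusted p = 0.0793), with only the groups compared (0.0983), with limma-voom (0.0803) and with a GC content offset, which brought the log2 difference to -0.037 (adjusted p = 0.615). Atg9a had 46.8 to 57.4 CPM (median 49.8) in SD and 37.5 to 50.5 CPM (median 45.2) in MET+LEU, a log2 difference of -0.19 ± 0.06 (adjusted p = 0.0157, 0.0463 without MET+LEU replicate 6 and 0.0538 without SD replicate 1). It was lost in the same 3 settings, with an adjusted p of 0.084 to 0.177, and the GC content offset brought it to -0.093.

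The other 37 members had log2 differences from -0.14 (Ctsd) to 0.31 (Ctsk, at its few counts). In MET+LEU the TFEB family genes had 21.9 to 35 CPM (Tfeb, median 31.8), 34.4 to 41.7 CPM (Tfe3, median 38.9) and 17.7 to 20.7 CPM (Mitf, median 19), with adjusted p of 0.31, 0.424 and 0.96 vs. SD. The coat proteins also did not pass: Map1lc3b had 79.1 to 86.9 CPM (median 82.2), Gabarap 159 to 229.9 CPM (median 209), Gabarapl1 45.5 to 54 CPM (median 47.8), Gabarapl2 16.7 to 24.3 CPM (median 22) and Map1lc3a 63.7 to 98.4 CPM (median 81.2). For Gabarap the lowest value was MET+LEU replicate 6, and without it the log2 difference went from 0.06 to 0.12 and passed (adjusted p = 0.0178). Sqstm1 had 318 to 440.5 CPM (median 400.2), Becn1 69.7 to 78.3 CPM (median 70.9) and Glb1 22 to 26.2 CPM (median 23.9), with adjusted p of 0.692, 0.167 and 0.803. Nbr1, at 198 to 208 CPM (median 203), lay above all SD libraries, and its log2 difference of 0.08 missed the threshold (adjusted p = 0.0523).

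The SD vs. 2% HS and MET+LEU vs. SD values of the 8 members called in MET+LEU vs. SD are set beside each other here. The comparisons share the SD libraries, which limits what their signs can show when set beside each other. Ulk1 had log2 differences of -0.35 and -0.15, and Wipi1 of 0.11 and 0.16. Lamp2 had -0.13 and 0.12, and Hexa -0.15 and 0.13. The rest passed only in MET+LEU vs. SD. Ctsl had -0.02 and 0.28, Atg3 0.17 and 0.27, Optn -0.11 and 0.28, and Atg9a 0.01 and -0.19.

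**Figure D4:**
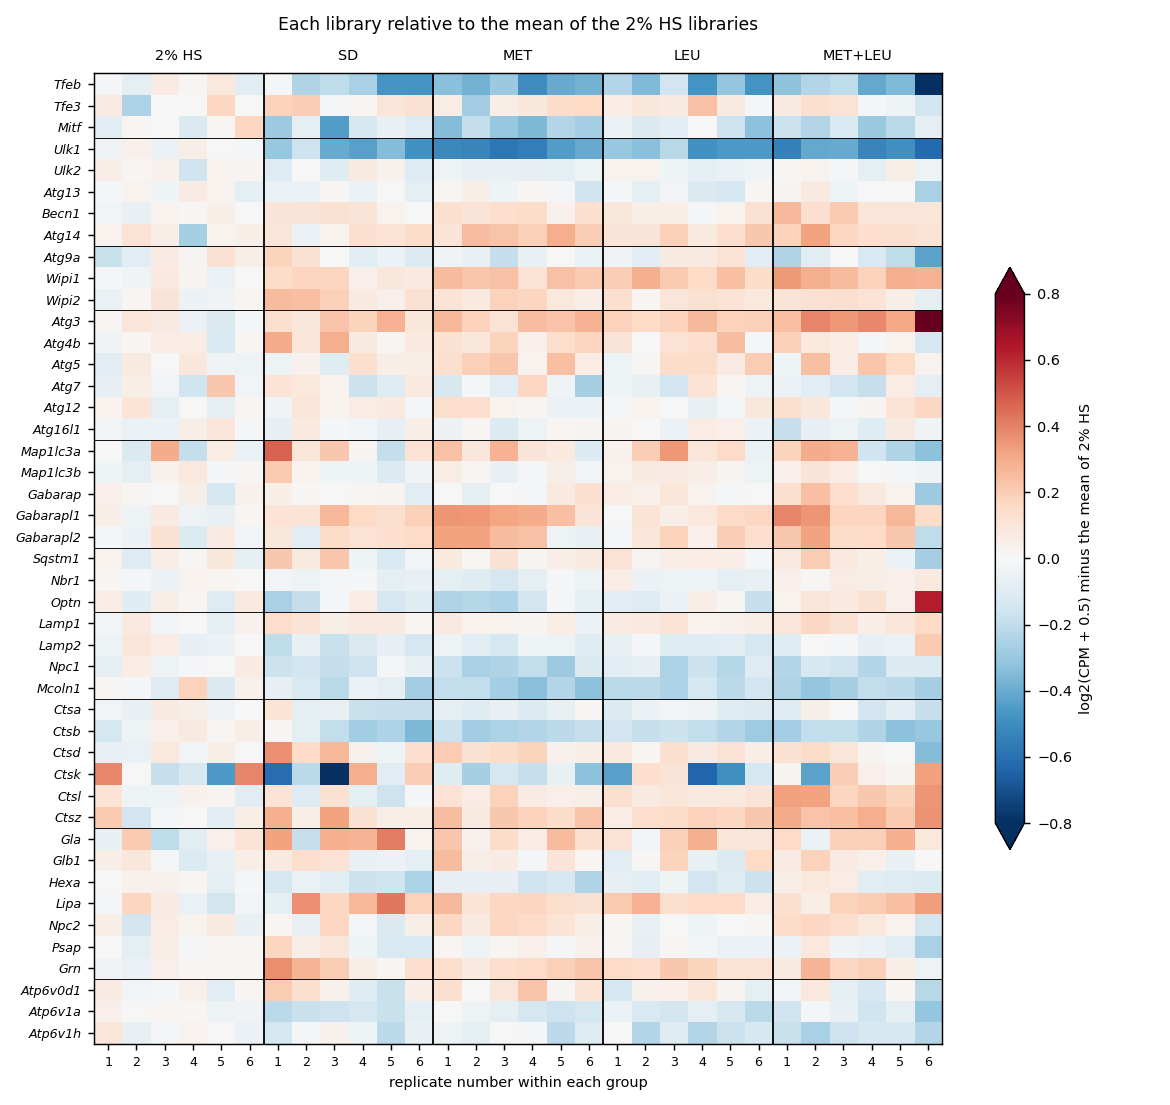
Log2(CPM + 0.5) of each member in each library minus the mean of the 6 libraries of 2% HS, with red above and blue below it, libraries in columns by group and replicate number, and members in rows by role. Ulk1 and Tfeb lie below 0 in every library of the serum-free groups, with Tfeb in SD replicate 1 close to white, Wipi1 and Atg3 are red there, and MET+LEU replicate 6 is the most coloured column.

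MET+LEU vs. 2% HS asked how far the combination left these genes from the serum condition. Its group means leave out the SD libraries, which still enter the shared estimate of the spread. Of the 45 members, 10 were higher and 9 lower, 42.2% beside a background of 42.3% (22.1% higher and 20.3% lower). Without MET+LEU replicate 6 there were 13 higher and 9 lower, and all 19 calls were kept. Ulk1 was lower at -0.50 ± 0.05 (adjusted p = 1.5e-12), with 109.8 to 128 CPM against 164 to 175 CPM, and at -0.49 without that library. Tfeb was lower at -0.39 ± 0.08 (adjusted p = 8.3e-05) and -0.32 without MET+LEU replicate 6, and the groups did not overlap. Mitf, Atg9a, Npc1, Mcoln1, Ctsb, Atp6v1a and Atp6v1h were also lower, between -0.26 and -0.13, and between -0.26 and -0.10 without that library. Atg3 was higher at 0.44 ± 0.06 (adjusted p = 5.1e-07) and 0.33 without that library, and Wipi1, Ctsz, Gabarapl1 and Ctsl were higher at 0.26 to 0.27 (0.24 to 0.27 without it). Becn1 (0.15), Atg14 (0.18), Lamp1 (0.11), Lipa (0.19) and Grn (0.13) completed the higher group, and without that library these were 0.15, 0.19, 0.10, 0.15 and 0.15. Of the 19 calls 14 passed in all 40 alternative settings. Mitf, Atg9a and Lipa were lost only at an adjusted p under 0.01. Atg14 was also lost with only the groups compared and without 2% HS replicate 4 or MET+LEU replicate 2 (adjusted p up to 0.123), and Grn with upper-quartile scaling and without 2% HS replicate 1 or 2 or MET+LEU replicate 2 or 4 (up to 0.135). Lamp2 and Hexa, which differed in both of the comparisons with SD, did not pass here, with adjusted p of 0.987 and 0.713.

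Setting the combination against each compound alone asked what the second compound added. In MET+LEU vs. MET, 4 members were higher and 0 lower, beside 8.69% of all genes (5.54% higher and 3.15% lower), with 8 members at an unadjusted p under 0.05. Without MET+LEU replicate 6 there were 3 higher and 0 lower. DESeq2's Wald test called 5 higher and 1 lower, and limma-voom 3 higher and 1 lower. Over all genes DESeq2's Wald test called 936 higher and 686 lower, and limma-voom 774 and 461. Optn had 18.3 to 21.7 CPM (median 19.1) in MET and 22.3 to 34.1 CPM in MET+LEU, without overlap, a log2 difference of 0.34 ± 0.08 (adjusted p = 0.00337) and 0.23 without MET+LEU replicate 6 (adjusted p = 0.0237). Ctsl had 239.9 to 265 CPM (median 243) in MET, and its log2 difference was 0.18 (adjusted p = 0.00396, and 0.0129 without that library). Nbr1 had 179 to 195 CPM (median 186) in MET, below all MET+LEU libraries, a log2 difference of 0.12 (adjusted p = 0.00848, and 0.0311 without it) that was lost without MET replicate 3. The Nbr1 call was also lost with a filter of more than 5 counts in total (0.0615) and only the groups compared (0.0519). Atg3 had 47.9 to 53.6 CPM (median 52.3) in MET, and its log2 difference of 0.22 (adjusted p = 0.0263) became 0.11 without MET+LEU replicate 6 and did not pass (adjusted p = 0.167). It was also lost without MET replicate 2 or 3, with limma-voom (0.0871) and with only the groups compared (0.158).

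In MET+LEU vs. LEU, 4 members were higher and 1 lower, beside 6.28% of all genes (4.61% higher and 1.67% lower). Without MET+LEU replicate 6 there were 2 higher and 0 lower. Ctsl was higher by 0.17 with no overlap between groups (adjusted p = 0.00745, and 0.0285 without MET+LEU replicate 6). Gabarapl1 had 41 to 46.1 CPM (median 43.8) in LEU, and its difference of 0.16 passed (adjusted p = 0.0324) but was lost in 23 of 40 alternative settings. Atg3, with 49.3 to 52.9 CPM (median 50.2) in LEU, was higher by 0.25 (adjusted p = 0.0168), and Optn, with 19.2 to 22.7 CPM (median 20.8), by 0.24 (adjusted p = 0.0425). Without MET+LEU replicate 6 these became 0.14 and 0.13 and did not pass (adjusted p = 0.082 and 0.284). Atg9a, with 47.6 to 54.9 CPM (median 51.4) in LEU, was lower by -0.19 (adjusted p = 0.0425, and 0.115 without that library). Of the 40 alternative settings, Optn was lost in 30, Atg9a in 10 and Atg3 in 4. Among the 45 members, Ctsl alone was called against SD, MET, LEU and 2% HS alike, with and without the library that stood apart.

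The MET by LEU interaction, which asks whether the combination departs from the sum of the single effects, passed for 0 of 45 members in edgeR, beside 0.0503% of all genes. At an unadjusted p under 0.05 there were 4 of 45 members, all higher (Atg3, Nbr1, Optn and Lamp1). Over all 15907 genes there were 1389, a similar share. DESeq2 and limma-voom called 0 members. Optn had an interaction of 0.30 ± 0.11 (adjusted p = 0.352), which became 0.18 without MET+LEU replicate 6. For Ctsl it was 0.07, with a 95% interval from -0.05 to 0.18, and for Ulk1 0.03, from -0.10 to 0.16, so the sum of the single effects was not distinguished from the combination for either gene.

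Another 140 genes of the same pathway, listed by function, had 137 tested. In SD vs. 2% HS, 22 were higher and 23 lower, 32.8% beside the background of 27.8%. The lysosomal glycosidases, sulfatases and lipid enzymes moved both ways, with 8 of 29 higher and 5 lower, and 4 of 9 lysosomal proteases tested were higher and 1 lower. Of the 16 other V-ATPase subunits 0 were higher and 2 lower, and of 11 genes tested that control TFEB 1 was higher and 3 lower. Over all genes 13.9% were higher and 13.9% lower. Ctsc, the protease cathepsin C, fell most among those named by rule, from 10.7 to 16.8 CPM (median 11.4) to 3.87 to 6.78 CPM (median 5.31), a log2 difference of -1.22 ± 0.16 (adjusted p = 8.4e-08). The mitophagy receptor gene Bnip3 fell by 0.70 on the log2 scale (adjusted p = 2.3e-05), the V-ATPase subunit gene Tcirg1 by 0.46 (adjusted p = 8.2e-11), and Flcn, whose product folliculin controls TFEB through the Rag GTPases, by 0.46 (adjusted p = 1.9e-08). The sulfatase gene Sgsh rose by 0.49 (adjusted p = 8.2e-08). None of these 5 overlapped between groups, but they were picked as the largest called changes in this comparison, which favours such a gap.

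Among the same 137 genes, MET vs. SD gave 0 higher and 1 lower, 0.73% beside 0.157% of all genes. LEU vs. SD gave 1 higher and 1 lower, 1.46% beside 0.553%. MET+LEU vs. SD gave 11 higher and 17 lower, 20.4% beside the background of 18.4%. Of 10 selective autophagy receptors 3 were higher and 0 lower, and of 20 tested genes of the lysosomal membrane and transport 1 was higher and 5 lower. Over all genes 10.6% were higher and 7.80% lower. In the ULK and PI3K complexes 1 of 8 was higher and 2 lower, and in the fusion machinery 2 of 12 were higher and 2 lower. The 16 other V-ATPase subunits had 2 higher and 2 lower. For lipid transfer, WIPI and conjugation 1 of 13 was higher and 2 lower. For sorting to the lysosome 0 of 9 were higher and 2 lower, and for TFEB control 1 of 11 was higher and 1 lower. No lysosomal protease of the 9 tested was called. Of 29 lysosomal glycosidases, sulfatases and lipid enzymes 0 were higher and 1 lower. The cargo receptor gene Tax1bp1 rose by 0.27 (adjusted p = 1.7e-05, and 0.20 without MET+LEU replicate 6), and Rb1cc1, whose product FIP200 is the scaffold of the ULK1 complex, by 0.26 (adjusted p = 1.2e-04, and 0.21 without it). The V-ATPase subunit gene Atp6v1d rose by 0.27 (adjusted p = 5.8e-04, and 0.19 without it). The lysosomal channel gene Tpcn2 fell by 0.35 (adjusted p = 0.00791), and the chloride transporter gene Clcn7 fell by 0.25 (adjusted p = 0.00336). All 5 still passed without that library.

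Reads of some members may be shared with neighbours. Of the 45 members, 18 have exon bases that an exon of another annotated gene also covers, and for 9 these exceed 10% of the exon length (Becn1 43.9%, Ctsd 34.4%, Atg9a 32.6%, Gabarapl1 28.3%, Ctsl 26.8%, Ctsa 17.4%, Sqstm1 17.3%, Ctsb 12.8% and Hexa 12.8%). Most of the shared bases lie on the opposite strand, except in Ctsd, Atg9a and Glb1. The libraries were prepared with a stranded kit, and the strand setting of the counting is not given in the sources used here, so values of these 9 genes are less certain than those of the others.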

How the data were processed

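Total RNA from 30 C2C12 myotube libraries (5 groups of 6) was sequenced after ribosomal RNA depletion, and the authors deposited 1 table of raw read counts per Ensembl gene for each sample, with no normalization. The submitters' processing notes name the mouse build GRCm38 and the tools cutadapt 1.16, STAR 2.7.6a, featureCounts 1.6.3 and DESeq2 1.30.1. The annotation release and the strand setting of the counting are not given in the sources used here. Counts that a gene shares with overlapping genes can be lost or misplaced at that step, and ribosomal RNA that escapes depletion takes depth from all other genes.

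From the deposited counts, gene symbols, coordinates and exon lengths were taken from GENCODE M21 (GRCm38). Genes were filtered with filterByExpr (minimum count 10, minimum total 15), scaled by TMM, and fitted in R 4.3.3 with edgeR 4.0.16 (robust quasi-likelihood F tests, 1 mean per group over all 30 libraries). Changes were called at a Benjamini-Hochberg adjusted p under 0.05 over all 15907 genes tested. Intervals are 1.96 standard errors on either side of the log2 difference. Alternatives used limma 3.58.1, DESeq2 1.42.0 and other filters, scalings and libraries, 40 in all. The test was also run on simulated counts. No 2 libraries of a group were alike within sampling noise (chi-square per degree of freedom of at least 2.33 in 75 pairs). The labels do not say what a replicate number marks, and deviations of same-numbered libraries had a mean correlation of 0.02 over 60 pairs, so numbers were not used to pair them.

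The members and the lists of other genes were chosen with earlier results of these data known. Values in every library are given for the TFEB family, the LC3 and GABARAP genes, Sqstm1, Becn1, Ulk1, Glb1, the 8 members with the largest called changes without serum and likewise with the combination, and members called in the comparisons involving a single compound. Of the other pathway genes, the 5 with the largest called changes in those 2 comparisons (mean log2 CPM of at least 1) are named.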

Additional observations from a re-analysis of the deposited data

Results flagged for a closer look

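In 18 of 225 combinations of a member and a group (8%), 1 of the 6 libraries stood far from the other 5, past the 95% critical value of Dixon's gap test for 6 values. About 1 in 20 groups does so by chance. MET+LEU replicate 6, the library with the high ribosomal RNA share, gave 7 of the 18. In it the level was 21.9 CPM for Tfeb (30.2 to 35 in the other 5), 45.8 for Atg13 (53.5 to 57.6), 16.7 for Gabarapl2 (21.5 to 24.3) and 338 for Ctsd (428 to 478). It was high for Atg3 (82, against 52.2 to 58.1), Optn (34.1, against 22.3 to 23.8) and Lamp2 (332, against 268 to 287).

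The other 11 were spread over 10 libraries. In 2% HS, replicate 4 was low for Ulk2 (84.2 CPM) and Atg14 (14.2), and replicate 5 was low for Gabarap (177). In SD, replicate 2 was low for Gabarapl2 (18.2). In MET, replicate 2 was low for Tfe3 (31.3), replicate 3 for Atg9a (44.2) and replicate 4 for Wipi1 (117). In LEU, replicate 2 was low for Wipi2 (80.2), replicate 4 was high for Atg3 (52.9) and replicate 1 was high for Nbr1 (205). In MET+LEU, replicate 2 was high for Atg14 (21.6).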

How the results depend on the processing

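Over 40 alternatives (10 settings and 30 fits that each left out 1 library), no called member changed direction, and MET vs. SD, LEU vs. SD and the interaction called 0 members throughout. In SD vs. 2% HS, Tfeb, Ulk1, Wipi2, Gabarapl1, Ctsb, Hexa, Lipa, Grn and Atp6v1a were called in all 40. An adjusted p under 0.01 left 4 higher and 5 lower, and leaving out 1 library gave 5 to 9 higher and 6 to 9 lower, with 5 higher without 2% HS replicate 5, SD replicate 1 or SD replicate 3. In MET+LEU vs. SD, fitting only the groups compared gave 3 higher and 0 lower, limma-voom with sample quality weights 4 and 0, an adjusted p under 0.01 4 and 0, and a GC content offset 8 and 1. Leaving out 1 library gave 5 to 6 higher and 1 to 4 lower, with 1 lower without SD replicate 2 and 4 without SD replicate 5. In MET+LEU vs. MET, the GC offset gave 7 higher and only the groups compared 2. DESeq2 size factors, upper-quartile scaling, the GC offset, DESeq2's Wald test, limma-voom and at least 10 counts in every library each gave 1 lower, and leaving out 1 library gave 2 to 4 higher (2 without MET replicate 3) and 0 to 2 lower. In MET+LEU vs. LEU, upper-quartile scaling and a filter of more than 5 counts in total each gave 2 higher, only the groups compared and an adjusted p under 0.01 each gave 1, and the GC offset gave 6. The adjusted p under 0.01, the GC offset, limma-voom and only the groups compared each gave 0 lower, and leaving out 1 library gave 1 to 4 higher and 0 to 1 lower. Over all genes, MET+LEU vs. SD called 1690 higher and 1241 lower, and 941 and 481 with only the groups compared. MET+LEU vs. MET called 881 and 501, and 1054 and 439 with the GC offset. MET+LEU vs. LEU called 733 and 266, and 417 and 356 with upper-quartile scaling. In MET+LEU vs. 2% HS, 14 of 19 calls held in all 40, and leaving out 1 library gave 8 to 13 higher and 9 to 10 lower. The causes were not tested.

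Members that were not called changed sign near 0. For SD vs. 2% HS, Atg9a became -0.022 with the GC offset and -0.015 with limma-voom. Map1lc3b became -0.0031 with upper-quartile scaling, -0.011 with the GC offset and -0.020 with limma-voom, Gabarap -0.010, -0.0055 and -0.0075 with the same, and Gabarap -0.0057 with at least 10 counts in every library. Leaving out 1 library gave -0.026 to 0.037 for Atg9a, -0.039 to 0.028 for Map1lc3b, -0.024 to 0.015 for Gabarap and -0.051 to 0.0038 for Ctsl. For MET+LEU vs. SD the GC offset gave 0.028 for Tfeb, 0.037 for Map1lc3a, 0.017 for Sqstm1 and 0.015 for Grn, and limma-voom 0.017 for Sqstm1. Leaving out 1 library gave -0.065 to 0.0094 for Mitf, -0.011 to 0.055 for Map1lc3b, -0.082 to 0.0082 for Sqstm1 and -0.0076 to 0.046 for Glb1.

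The fit with the replicate number as a block called 8 higher and 9 lower for SD vs. 2% HS, 7 and 2 for MET+LEU vs. SD, 5 and 0 in MET+LEU vs. MET, 4 and 1 in MET+LEU vs. LEU, and 11 and 9 in MET+LEU vs. 2% HS. Correlations of same-numbered libraries ran from -0.09 to 0.14, and 11 of 30 libraries correlated best with their own number, where 5 would be expected of unrelated numbers. That is a hint from the data, not from the design. Depth limits Ctsk, with 5 to 21 counts per library.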
